A study of Mus musculus with 2 samples.

Results

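The transcripts described here are those of 9 genes of the FGF and PDGF signals that pass between the epithelium, mesenchyme and endothelium of the lung. They are the ligands *Fgf1*, *Fgf7* and *Fgf10*, the receptors *Fgfr1* and *Fgfr2*, the ligands *Pdgfa* and *Pdgfb*, and the receptors *Pdgfra* and *Pdgfrb*. The genes were taken by symbol, not by a threshold on their values, and all 9 were found among the 31053 genes of both matrices, with 1 row each. Fibroblast growth factors bind receptor tyrosine kinases on nearby cells, and FGF7 and FGF10 made by lung mesenchyme act on the epithelial form of FGFR2, which supports alveolar epithelial growth and repair. Platelet-derived growth factors bind PDGFRA and PDGFRB. In the lung, PDGF-A of epithelial cells is a known signal to PDGFRA+ fibroblasts, and PDGF-B of endothelial cells is known to recruit pericytes, which carry PDGFRB.

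Lungs of *Pclaf* WT and *Pclaf* KO animals, 8 to 10 weeks old, were dissociated 1 week after bleomycin and measured by droplet single-cell RNA sequencing, with 1 library per genotype. *Pclaf* encodes a PCNA-associated factor of dividing cells. Both libraries come from bleomycin-treated lungs (1.35 U/kg per the labels), so there is no uninjured group, and the KO mice are a germline knockout of *Pclaf*. How many animals entered each library is not given in the sources used here. The deposited values are UMI counts, that is, counts of distinct transcript molecules per gene and cell. They were summed over the cells of a class in each library and divided by the UMIs of that class, in counts per 1000000 (CPM). With 1 library per genotype, no difference between genotypes could be tested, and the libraries, the animals and the genotype cannot be told apart. The 95% intervals given below are exact Poisson for a level, exact conditional for a log2 ratio of KO over WT, and exact binomial (Clopper-Pearson) for a share of cells. All of them cover counting error only.

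The WT library held 98171818 UMIs on 30669 barcodes and the KO library 111267567 UMIs on 17172 barcodes. Cells kept by the limits on genes and mitochondrial UMIs were 30187 in WT and 15637 in KO, with medians of 2127 and 5957 UMIs. The labels call both samples epithelial cells sorted as EpCAM+ and negative for CD31 and CD45, but the transcripts of these gate markers went against that label, most of all in WT. *Epcam* was detected in 5.83% of WT and 46.8% of KO cells, *Pecam1* (CD31) in 41.5% and 4.94%, and *Ptprc* (CD45) in 39.6% and 3.30%. *Pclaf* itself was at 39.3 CPM in WT and 5.19 in KO over all kept cells. *Xist* and the Y-linked *Ddx3y* were present in both libraries, at 254 and 74.0 CPM in WT and at 498 and 24.04 CPM in KO. The libraries shared 163 barcodes, of which 160 WT and 141 KO cells were kept. After clustering, WT held 1348 epithelial, 2780 mesenchymal and 6341 endothelial cells, and KO held 10438, 2753 and 417. Mesenchymal values therefore rest on like numbers of cells, but on 8452866 UMIs in WT and 13035752 in KO. WT epithelial values rest on few cells, and KO endothelial values on very few. A further 4971 WT and 500 KO cells were removed in the clustering. They held 25.7% of the WT and 10.4% of the KO *Pdgfra* UMIs, and 22.9% and 9.42% of the *Pdgfrb* UMIs. What this removal did to the levels was not tested. Clusters were named from marker lists, and names such as AT2-like (alveolar type II) mean only that those markers led. The goblet-like cluster was led by *Scgb3a2*, *Scgb3a1* and *Scgb1a1*, and the authors stained SCGB1A1 as a club cell marker. No class was named club, so goblet-like cells are not separated from club cells here. Classes with fewer than 50 cells or 100000 UMIs in a library are given as too few. The median log2 ratio of all genes with at least 20 UMIs was -0.20 in epithelium, -0.08 in mesenchyme and -0.10 in endothelium, so a ratio of 0 lay slightly above the middle gene.

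**Figure D1:**
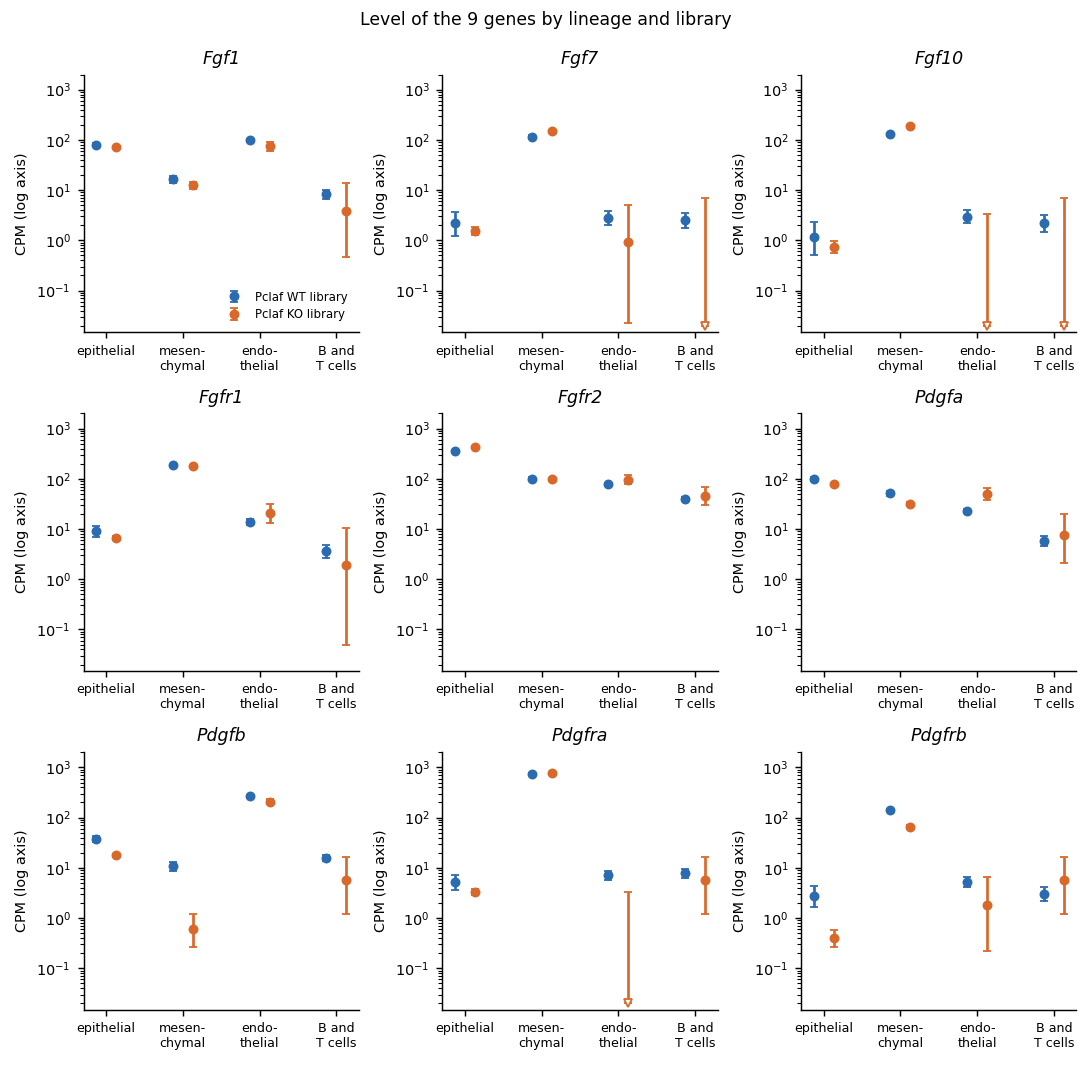
Level of each of the 9 genes (CPM, log axis) in epithelial, mesenchymal and endothelial cells and in B and T cells, for the WT library (blue) and the KO library (orange), with exact Poisson 95% intervals. Open triangles at the foot of the axis stand for 0 UMIs. *Fgf7*, *Fgf10*, *Pdgfra* and *Pdgfrb* stand far above the B and T cells only in the mesenchyme, while *Fgfr2* and *Pdgfa* lie above them in all 3 lineages.

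B and T cells served as the background level, with 4979 such cells in WT and 183 in KO. The KO level rests on 24 UMIs of *Fgfr2*, 4 of *Pdgfa*, 3 each of *Pdgfb*, *Pdgfra* and *Pdgfrb*, and 2 of *Fgf1*. It rests on 1 UMI of *Fgfr1* and 0 of *Fgf7* and *Fgf10*. Its intervals are therefore wide, such as 1.18 to 16.7 CPM for *Pdgfb*, and fewer levels can stand above it in KO than in WT. Whether their counts came from free RNA or from the cells themselves was not tested. The WT mesenchyme held 117 CPM of *Fgf7*, 129 of *Fgf10*, 752 of *Pdgfra* and 141 of *Pdgfrb*, against 2.52, 2.20, 7.79 and 3.07 CPM in WT B and T cells. These 4 genes were above the B and T cells of both libraries only in the mesenchyme, among the 3 lineages. *Fgf1* and *Pdgfb* were above them in epithelium and endothelium, *Fgfr1* in mesenchyme and endothelium, and *Fgfr2* and *Pdgfa* in all 3 lineages. The senders of FGF7 and FGF10 and the holders of both PDGF receptors were therefore mesenchymal by transcript, and *Fgfr2* was highest in the epithelium.

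*Fgf7* (ENSMUSG00000027208) encodes keratinocyte growth factor, a mesenchymal ligand for epithelial FGFR2. In mesenchymal cells it had 986 UMIs in WT (117 CPM) and 1932 in KO (148 CPM), a log2 ratio of 0.35 (0.23 to 0.46). Between the fibroblast classes, *Fgf7* was at 164 and 175 CPM in WT and KO alveolar fibroblast-like cells, and at 141 and 146 CPM in ductal myofibroblast-like cells, which surround the alveolar ducts. Adventitial fibroblast-like cells, the fibroblasts around vessels and airways, held 104 and 90.6 CPM. The first 2 classes did not differ beyond counting error in either library, and smooth muscle-like cells held only 8.30 and 15.4 CPM.

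Within the 3 named fibroblast classes the ratios lay closer to 0 than over the whole mesenchyme. The log2 ratio of *Fgf7* was 0.09 (-0.04 to 0.22) in alveolar fibroblast-like, 0.05 (-0.42 to 0.53) in ductal myofibroblast-like and -0.20 (-0.75 to 0.36) in adventitial fibroblast-like cells. All 3 intervals contain 0. In smooth muscle-like cells the ratio was 0.89 (-0.72 to 2.50), farther from 0 but from only 8 UMIs in each library. With the classes weighted by their WT shares in both libraries, the ratio over the mesenchyme was 0.10.

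*Fgf10* (ENSMUSG00000021732), the ligand that drives airway branching in the embryo, was at 129 CPM in WT (1089 UMIs), and the level in KO mesenchyme was 187 CPM (2444 UMIs), which gave a log2 ratio of 0.54 (0.44 to 0.65). Alveolar fibroblast-like cells were the highest class and stood apart from the next class in both libraries, at 204 CPM in WT and 230 in KO. Their ratio was 0.18 (0.06 to 0.29), smaller than that of the whole mesenchyme.

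The rarer fibroblast classes had larger ratios, but their intervals overlapped with that of alveolar fibroblast-like cells. *Fgf10* was at 77.9 CPM in WT and 130 in KO adventitial fibroblast-like cells, a log2 ratio of 0.73 (0.18 to 1.31) from 39 and 93 UMIs. In ductal myofibroblast-like cells it was at 52.6 and 99.1 CPM, a ratio of 0.91 (0.22 to 1.65) from 25 and 59 UMIs. The direction in the ductal class turned when 1 in 6 KO cells was used alone (-0.10) and when cells were thinned to 1000 UMIs (-0.50), so it rests on few molecules. In smooth muscle-like cells *Fgf10* was near the background, at 2.07 and 1.92 CPM.

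The alveolar fibroblast-like class was not the same mixture in both libraries. In WT, 661 of its 1613 cells fell in cluster 0, whose WT cells had a median of 651 UMIs, while KO had 41 of 1984 cells there. Inside the deeper clusters the *Fgf10* ratio went both ways. It was 0.18 in cluster 1, 0.13 in cluster 2, -0.15 in cluster 3 and -0.34 (-0.63 to -0.05) in cluster 5. In the shallow clusters 0 and 6 it was -1.15, with 1 UMI in KO, and -0.26. Of all 6 clusters, 4 had a lower and 2 a higher level in KO. Only the interval of cluster 5 lies on 1 side of 0, so the higher KO level of the pooled class was not found in each of its clusters.

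*Fgf7* and *Fgf10* tended to be detected in the same mesenchymal cells. *Fgf10* was seen in 43.3% of WT and 57.7% of KO cells with a *Fgf7* UMI, and in 15.3% and 30.7% of those without one. *Pdgfra* was seen in 86.8% of WT and 92.3% of KO cells with *Fgf10*, and in 44.4% and 59.9% of the others. Cells with more UMIs are more likely to show any gene, and these shares were not corrected for it.

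*Fgf1* (ENSMUSG00000036585), which encodes acidic FGF, a ligand for all FGF receptors, was chiefly endothelial and epithelial in these libraries. Endothelial cells held 97.4 CPM, from 1475 UMIs, in WT and 74.0 CPM, from 81 UMIs, in KO. Epithelial cells held 80.7 CPM from 555 UMIs and 72.9 CPM from 5670 UMIs. The lead of the endothelium over the epithelium was only 1.12-fold in the mean of both libraries. The mesenchyme held 16.4 CPM in WT and 12.5 in KO, above the B and T cells in WT only. In KO its interval of 10.7 to 14.6 CPM overlapped with the 0.46 to 13.8 CPM of B and T cells, which rest on 2 UMIs. Within it, smooth muscle-like cells held 47.7 CPM from 46 UMIs in WT and 26.9 CPM from 14 UMIs in KO, above the B and T cells in both libraries and overlapping with goblet-like cells.

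Aerocyte-like cells, the large capillary cells at the gas exchange surface, were the highest class at 238 CPM of *Fgf1* in WT and 168 CPM in KO. AT1-like cells, the flat alveolar cells that face them, came next with 174 and 135 CPM, and ciliated-like cells held 114 and 96.1 CPM. Aerocyte-like and AT1-like cells were apart in WT and overlapped in KO. AT2-like cells held 66.3 and 72.7 CPM, near the unnamed endothelial clusters with 80.8 and 64.6 CPM.

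The library difference of *Fgf1* was small in both lineages. The log2 ratio was -0.40 (-0.74 to -0.07) in endothelium and -0.50 (-1.10 to 0.05) in aerocyte-like cells. In epithelium it was -0.15 (-0.27 to -0.02), but scaling by TMM factors turned it to 0.11 and centring on the median gene to 0.06. Thinning every cell to 1000 UMIs brought the endothelial ratio to 0.07.

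*Fgfr2* (ENSMUSG00000030849) encodes the receptor for FGF7 and FGF10. Epithelial cells held 2473 UMIs in WT (360 CPM) and 33789 in KO (435 CPM), a log2 ratio of 0.27 (0.21 to 0.33). AT2-like cells, the surfactant-producing cells that serve as alveolar progenitors, had the highest level with 594 CPM in WT and 591 in KO. Within that class the ratio was -0.01 (-0.08 to 0.07), beside a median of -0.14 over all genes tested in the class. AT2-like cells were 566 of 1348 WT and 5801 of 10438 KO epithelial cells, and weighting the classes by their WT shares brought the epithelial ratio to 0.03.

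The other epithelial classes held less *Fgfr2* than AT2-like cells in both libraries. Goblet-like cells were at 282 CPM in WT and 246 in KO, AT1-like cells at 208 and 250 CPM, ciliated-like cells at 187 and 215 CPM, and Krt8+-like cells, the transitional cells between AT2 and AT1, at 166 and 170 CPM. On the log2 scale AT1-like cells were 1.52 below AT2-like cells in WT and 1.24 below in KO. Krt8+-like cells were 1.84 and 1.80 below. Only the KO library had enough cycling and basal-like epithelial cells, and they held 476 and 350 CPM.

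The class ratios of *Fgfr2* were 0.27 (0.04 to 0.51) in AT1-like, 0.20 (0.01 to 0.40) in ciliated-like and -0.20 (-0.38 to -0.02) in goblet-like cells. These intervals reach close to 0 on 1 side. The ciliated-like direction turned without the called doublets (-0.09), and the goblet-like direction turned without the shared barcodes (0.11), with 20 principal components (0.09) and under TMM scaling (0.01). In Krt8+-like cells the ratio was 0.03 (-0.24 to 0.31).

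Outside the epithelium, *Fgfr2* was highest in ductal myofibroblast-like cells, with 242 CPM in WT and 232 in KO. That level overlapped with those of goblet-like cells in both libraries. The whole mesenchyme held 99.0 and 96.8 CPM and the endothelium 77.7 and 95.9 CPM, where B and T cells held 39.3 and 45.8 CPM. The *Fgfr2* counts do not separate the epithelial and mesenchymal splice forms, which bind different ligands.

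*Fgfr1* (ENSMUSG00000031565) encodes the main FGF receptor of mesenchymal cells. The mesenchyme held 186 CPM in WT (1571 UMIs), and the KO level was 182 CPM (2367 UMIs), which gave a log2 ratio of -0.03 (-0.13 to 0.06). Adventitial fibroblast-like cells stood apart as the highest class, with 290 and 269 CPM. Alveolar fibroblast-like cells followed with 207 and 186 CPM, a ratio of -0.16 (-0.28 to -0.04), and overlapped with the unnamed mesenchymal clusters at 190 and 183 CPM. The ratio was below 0 in all 5 mesenchymal classes that could be compared, but beyond counting error only in the alveolar fibroblast-like class, where log-normalized means per cell had the opposite sign.

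In the endothelium *Fgfr1* was uneven. Aerocyte-like cells held 50.3 CPM in WT and 60.2 in KO, and the unnamed clusters held 5.07 and 4.12 CPM, close to the 3.62 and 1.91 CPM of B and T cells. The 44 lymphatic-like WT cells, too few for the comparison, held 173 CPM. In goblet-like cells *Fgfr1* was at 26.8 CPM in WT and 15.05 in KO, a ratio of -0.83 (-1.43 to -0.19) at a low level.

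**Figure D2:**
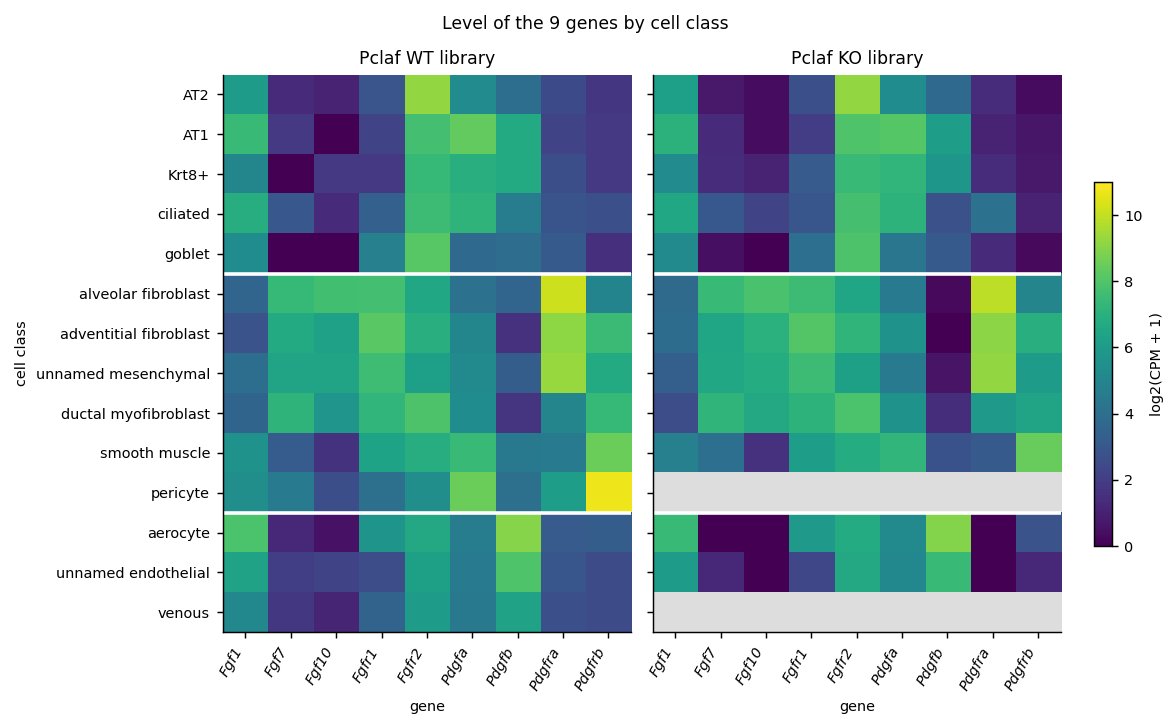
Heat map of the level of each of the 9 genes, as log2(CPM + 1), in each cell class of the WT and KO libraries. Grey cells mark classes with fewer than 50 cells or 100000 UMIs in that library. AT2-like cells lead for *Fgfr2*, alveolar fibroblast-like cells for *Fgf7*, *Fgf10* and *Pdgfra*, aerocyte-like cells for *Fgf1* and *Pdgfb*, and pericyte-like and AT1-like cells for *Pdgfa*.

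*Pdgfa* (ENSMUSG00000025856) encodes the A chain, which signals through PDGFRA. Epithelial cells held 98.4 CPM in WT (677 UMIs), and the KO level was 77.0 CPM (5986 UMIs), which gave a log2 ratio of -0.35 (-0.47 to -0.24). Of the epithelial classes, AT1-like cells had the highest level, with 327 CPM in WT and 271 in KO, where AT2-like cells held 38.3 and 40.1 CPM. A level is given per UMI of the class and is not its share of the epithelial *Pdgfa* UMIs. On the log2 scale AT1-like cells were 3.09 above AT2-like cells in WT and 2.76 above in KO.

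Ciliated-like cells held 141 CPM of *Pdgfa* in WT and 139 CPM in KO, and Krt8+-like cells held 121 and 151 CPM. Both classes overlapped in each library. Goblet-like cells held 12.5 and 19.1 CPM, close to the 5.82 and 7.63 CPM of B and T cells. Basal-like cells held 158 CPM in KO.

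In AT1-like, AT2-like, ciliated-like and Krt8+-like cells the ratio of *Pdgfa* lay closer to 0 than in the pooled epithelium. The log2 ratio was 0.06 (-0.23 to 0.37) in AT2-like, -0.01 (-0.24 to 0.22) in ciliated-like and 0.32 (0.00 to 0.64) in Krt8+-like cells. In AT1-like cells it was -0.27 (-0.46 to -0.08). In goblet-like cells, with only 13 UMIs in WT, it was 0.62 (-0.20 to 1.56), and in the unnamed epithelial clusters, with 5 UMIs in WT, it was -0.62 (-1.92 to 1.06). Class weighting by WT shares brought the epithelial ratio from -0.35 to -0.04. AT1-like cells were 234 of 1348 epithelial cells in WT and 1063 of 10438 in KO.

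The AT1-like class was itself made of 3 clusters that the libraries filled unequally, and *Pdgfa* was uneven between them. Cluster 14, led by *Rtkn2*, held 582 CPM of *Pdgfa* in WT and 684 CPM in KO, and the interval of the ratio of 0.23 (-0.01 to 0.49) just contained 0. Cluster 8 held 176 and 159 CPM, a ratio of -0.15 (-0.50 to 0.23).

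Cluster 13, the shallow one with a median of 888.5 UMIs in WT and 1560 in KO, held 271 and 156 CPM of *Pdgfa*, a ratio of -0.79 (-1.39 to -0.18). It held 108 of the 234 WT AT1-like cells and 213 of the 1063 KO cells, while cluster 8 held 68 and 623 and cluster 14 held 58 and 227. These are counts of cells, whereas the class level is weighted by UMIs, so a shallow cluster counts for less in it. The 3 clusters thus differed more from each other than the libraries did within clusters 8 and 14. The sign of the AT1-like ratio turned in 9 of the 17 alternative settings.

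The same split was seen for *Fgf1* and *Pdgfb*. In clusters 8, 13 and 14, *Fgf1* was at 68.0, 161 and 338 CPM in WT and at 64.9, 134 and 369 CPM in KO. *Pdgfb* was at 57.9, 73.1 and 195 CPM in WT and at 45.9, 49.0 and 162 CPM in KO. The *Rtkn2*-led cluster was the highest of these 3 clusters for all 3 ligands in both libraries. Its *Fgf1* values were also above the 238 and 168 CPM of the whole aerocyte-like class.

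In the mesenchyme, *Pdgfa* was highest in mural cells, the contractile cells of vessel and airway walls. WT pericyte-like cells held 366 CPM, a level that overlapped with AT1-like cells, and KO had only 30 such cells. Smooth muscle-like cells held 174 CPM in WT and 152 in KO, a ratio of -0.20 (-0.60 to 0.20). Over the whole mesenchyme *Pdgfa* was at 50.9 CPM in WT and 31.4 in KO, a ratio of -0.70 (-0.90 to -0.50), and class weighting brought it to -0.07. Alveolar fibroblast-like cells, low for this ligand, held 16.8 and 21.3 CPM, and their ratio of 0.34 (-0.06 to 0.76) had the opposite sign. The unnamed cluster 4, led by *Spp1* and *Timp1*, also differed between the libraries, with 41.2 and 21.8 CPM and a ratio of -0.92 (-1.51 to -0.34).

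In endothelial cells *Pdgfa* went the other way. It had 344 UMIs in WT (22.7 CPM) and 54 UMIs in KO (49.3 CPM), a log2 ratio of 1.12 (0.68 to 1.53), the highest ratio of the 9 genes in these 3 lineages. Of the 54 KO UMIs, 19 came from 39 venous-like cells, too few for the comparison. They held 113 CPM, where WT venous-like cells held 20.5 CPM. The unnamed endothelial clusters held 22.7 and 34.3 CPM, a ratio of 0.60 (-0.06 to 1.19), and aerocyte-like cells held 23.8 and 36.1 CPM from 51 and 6 UMIs. In both of these classes the interval contains 0. The unnamed clusters made up 5028 of the 6341 WT and 318 of the 417 KO endothelial cells. Among them, cluster 6, led by *Scgb1a1* and *Sftpc*, which are epithelial genes, held 450 WT and 74 KO cells. *Pdgfa* was there at 35.2 and 76.4 CPM, from 14 and 5 UMIs, and the interval of the ratio (-0.71 to 2.67) contains 0. Cluster 7, led by *Atf3* and *Egr1*, was the only unnamed cluster with an interval above 0. It held 19.9 CPM in WT and 67.9 in KO, a ratio of 1.77 (0.34 to 2.98) from 30 and 7 UMIs. The 7 epithelial markers summed to 44.2 CPM in WT and 155 in KO endothelial cells, with none at 0 in either library, and their part in the *Pdgfa* level was not tested.

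*Pdgfb* (ENSMUSG00000000489) encodes the B chain, the endothelial signal to mural cells. Endothelial cells held 266 CPM in WT (4025 UMIs), and the KO level was 209 CPM (229 UMIs), which gave a log2 ratio of -0.35 (-0.54 to -0.15). Aerocyte-like cells were highest, with 517 CPM in WT and 493 in KO, and the ratio of -0.07 (-0.41 to 0.26) was within counting error. The unnamed clusters were at 248 and 170 CPM, a ratio of -0.54 (-0.81 to -0.28). WT venous-like cells held 79.1 CPM (66.1 to 93.9). The 39 KO venous-like cells, too few for the comparison, held more, at 137 CPM (87.0 to 206).

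The interval of the ratio thus contained 0 in aerocyte-like cells and not in the unnamed clusters, but the intervals of both overlapped. Among the unnamed clusters, the interval lay below 0 in cluster 2 with a ratio of -0.91 (-1.57 to -0.33), led by *Npr3*. It also did in cluster 7 with -1.2001 (-2.16 to -0.38), led by the immediate early genes *Atf3* and *Egr1*. In cluster 0, led by *Lama1*, *Pdgfb* was at 287 CPM in WT and 304 in KO, a ratio of 0.08 (-0.38 to 0.51). Each of these clusters had fewer than 50 KO cells. Clusters 1 and 6 had more, 82 and 74. Their ratios were -0.42 (-1.05 to 0.15) and -1.04 (-2.53 to 0.15), and both intervals contain 0. In the small clusters 3 and 4 the interval contained 0 as well.

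In epithelial cells *Pdgfb* was at 37.4 CPM in WT and 18.2 in KO, a log2 ratio of -1.04 (-1.23 to -0.84), and class weighting left -0.77. AT1-like cells held 106 and 71.1 CPM (-0.58, -0.92 to -0.23), and Krt8+-like cells held 104 and 56.1 CPM (-0.90, -1.26 to -0.51). Ciliated-like cells held 23.9 and 5.67 CPM (-2.08, -2.74 to -1.39). AT2-like cells held 14.6 and 12.4 CPM and the ratio of -0.23 (-0.71 to 0.28) was within counting error. In both of these classes the levels overlapped with those of B and T cells in each library, at 15.5 and 5.72 CPM.

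Endothelial and immune transcripts in the same epithelial cells moved the same way. The 7 endothelial markers, among them *Pecam1* and *Cdh5*, summed to 282 CPM in WT and 86.1 in KO epithelial cells, with none at 0. By class they were at 351 and 139 CPM in AT1-like, 179 and 54.3 CPM in Krt8+-like, 524 and 28.5 CPM in ciliated-like and 229 and 107 CPM in AT2-like cells. The 7 immune markers summed to 341 CPM in WT and 127 in KO epithelial cells, again with none at 0. They were at 319 and 73.0 CPM in AT1-like, 170 and 52.0 CPM in Krt8+-like, 686 and 67.8 CPM in ciliated-like and 292 and 160 CPM in AT2-like cells. The part of both marker lists in the epithelial *Pdgfb* difference was not tested. Within AT1-like cells, the *Pdgfb* intervals of clusters 8, 13 and 14 all contained 0.

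In the mesenchyme *Pdgfb* had 91 UMIs in WT (10.8 CPM) and 8 in KO (0.61 CPM). Both levels were at or below those of B and T cells of the same library, which held 15.5 and 5.72 CPM, and were read as background.

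**Figure D3:**
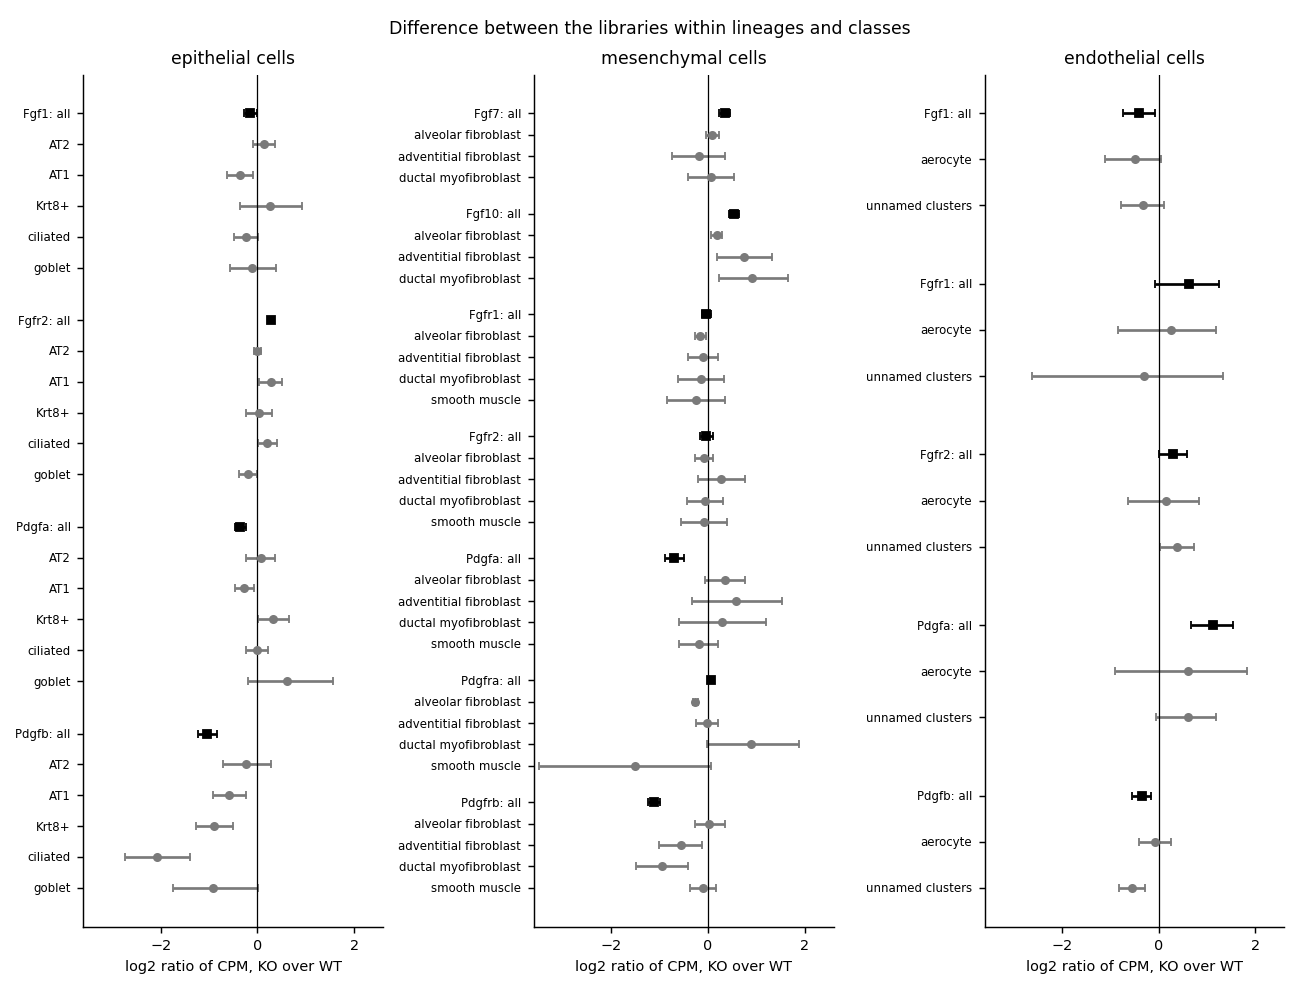
Log2 ratio of KO over WT CPM for the members in epithelial, mesenchymal and endothelial cells as a whole (black squares) and within classes (grey circles), with exact conditional 95% intervals. The whole-lineage ratios of *Pdgfrb* in mesenchyme and *Fgfr2* in epithelium lie farther from 0 than those of the class with the most cells, alveolar fibroblast-like (0.03) and AT2-like (-0.01).

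*Pdgfra* (ENSMUSG00000029231), the receptor for PDGF-A on alveolar fibroblasts, had 6359 UMIs in WT mesenchyme (752 CPM) and 10303 in KO (790 CPM), a log2 ratio of 0.07 (0.03 to 0.12). Alveolar fibroblast-like cells held the most, 1149 CPM in WT and 960 in KO. Within them the ratio had the opposite sign, -0.26 (-0.31 to -0.21), and class weighting over the mesenchyme gave -0.20. Alveolar fibroblast-like cells made up 48.6% of the mesenchymal UMIs in WT and 68.9% in KO.

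All 6 clusters of alveolar fibroblast-like cells had a *Pdgfra* ratio below 0, from -0.96 to -0.06, and the interval was below 0 in 5 of them. In the best filled cluster of KO, cluster 1, it was at 827 CPM in WT and 718 in KO. In cluster 5, the exception, it was at 1596 and 1528 CPM, a ratio of -0.06 (-0.16 to 0.04). The median ratio of all genes tested in this class was -0.07, and log-normalized means per cell had the opposite sign for *Pdgfra*.

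Adventitial fibroblast-like cells held 555 CPM of *Pdgfra* in WT and 545 CPM in KO, which overlapped with the unnamed mesenchymal clusters at 621 and 587 CPM. Ductal myofibroblast-like cells held 31.6 and 58.8 CPM and smooth muscle-like cells 21.8 and 7.70 CPM. On the log2 scale smooth muscle-like cells were 5.72 below alveolar fibroblast-like cells in WT and 6.96 below in KO. Epithelial and endothelial levels did not rise above the B and T cells of both libraries.

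*Pdgfrb* (ENSMUSG00000024620), the receptor for PDGF-B that defines pericytes, showed the largest mesenchymal difference of the members above background. It had 1194 UMIs in WT (141 CPM) and 850 in KO (65.2 CPM), a log2 ratio of -1.12 (-1.24 to -0.99). WT pericyte-like cells held 1680 CPM and stood apart from every other class. Smooth muscle-like cells held 366 CPM in WT and 342 in KO, and their ratio of -0.10 (-0.36 to 0.17) was within counting error. Alveolar fibroblast-like cells held 30.6 and 31.3 CPM, a ratio of 0.03 (-0.28 to 0.34).

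The make-up of the mesenchyme differed in the same direction. Pericyte-like cells gave 2.23% of the mesenchymal UMIs and 26.5% of the *Pdgfrb* UMIs in WT, and 0.47% and 13.3% in KO. Smooth muscle-like cells gave 11.4% of the UMIs and 29.6% of the *Pdgfrb* UMIs in WT, and 3.99% and 20.9% in KO. With the WT class shares in both libraries the ratio was -0.19, a value that uses the 30 KO pericyte-like cells. Over the 5 classes large enough in both libraries it was -0.29. Summed counts alone do not tell fewer cells of a type from less RNA per cell. By cells, pericyte-like cells were 119 of 2780 in WT and 30 of 2753 in KO, and smooth muscle-like cells were 227 and 98. The median UMIs per cell in WT and KO were 1889 and 2058 in pericyte-like cluster 11 and 651 and 773 in cluster 13. In smooth muscle-like cells they were 3950 and 5209.5. The 7 mural markers summed to 3572 CPM in WT and 1614 in KO mesenchyme.

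**Figure D4:**
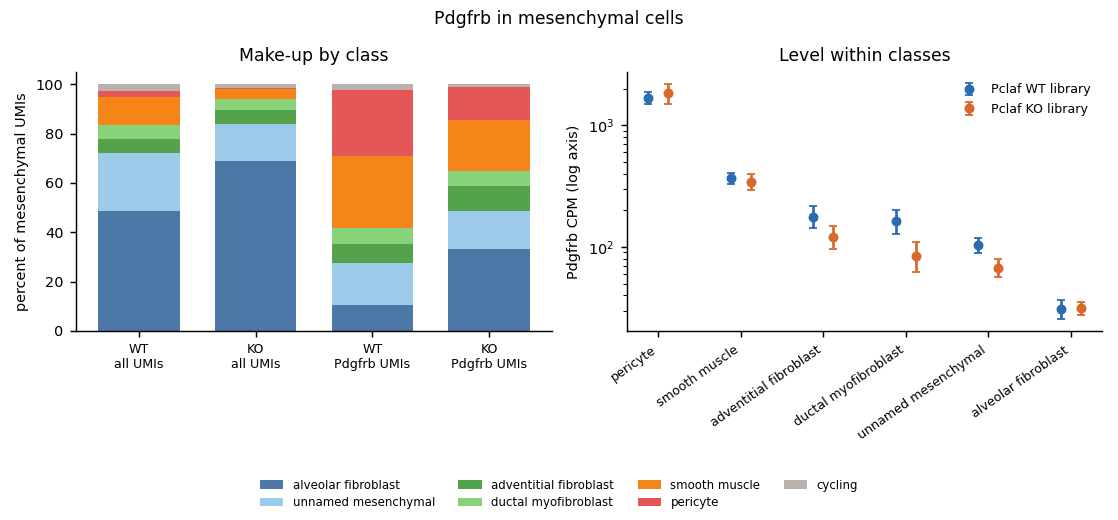
Make-up of the mesenchymal UMIs and of the *Pdgfrb* UMIs by class in the WT and KO libraries (stacked bars, percent), beside the *Pdgfrb* level (CPM) within classes with exact Poisson 95% intervals. Pericyte-like and smooth muscle-like cells give 26.5% and 29.6% of the WT *Pdgfrb* UMIs from 2.23% and 11.4% of all mesenchymal UMIs.

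A part of the *Pdgfrb* difference remained within 2 fibroblast classes and 1 unnamed cluster. Adventitial fibroblast-like cells held 178 CPM in WT and 120 in KO (-0.57, -1.01 to -0.12). Ductal myofibroblast-like cells held 162 and 84.0 CPM (-0.95, -1.49 to -0.42), and the unnamed cluster 4 held 115 and 69.2 CPM (-0.73, -1.07 to -0.40). In the last 2 the intervals of the levels did not overlap between libraries. The 7 mural markers were also lower there, at 5301 CPM in WT and 4584 in KO ductal myofibroblast-like cells and at 1381 and 660 CPM in the unnamed clusters 4 and 7 together. In adventitial fibroblast-like cells they were at 204 and 231 CPM. Their part in the *Pdgfrb* difference was not tested. By cell, *Pdgfrb* was seen in 18.2% of WT and 17.2% of KO mesenchymal cells with a *Pdgfra* UMI and in 22.0% and 20.2% of those without one.

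Shares of cells with a UMI depend on the depth of each cell, so they were compared after thinning each cell to 1000 UMIs, with shallower cells left out. That left 1209 WT and 10253 KO epithelial cells, 1840 and 2384 mesenchymal cells, and 4821 and 316 endothelial cells. *Pdgfra* was then seen in 44.3% of WT and 48.5% of KO mesenchymal cells, where it was in 53.6% and 73.4% before thinning. *Fgfr2* was seen in 28.3% and 32.4% of epithelial cells after thinning and in 60.6% and 77.9% before, with 4.04% and 6.18% of B and T cells after thinning.

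*Pdgfrb* was seen in 11.9% of thinned WT and 5.20% of thinned KO mesenchymal cells, *Fgf10* in 11.3% and 14.6%, and *Fgf7* in 10.7% and 14.1%. *Pdgfb* was seen in 21.9% and 17.1% of endothelial cells. At the same depth B and T cells showed *Pdgfb* in 1.44% and 0.562%, *Pdgfra* in 0.583% and 1.12% and *Pdgfrb* in 0.354% and 0.562% of cells. These shares had the same direction as the CPM of each gene. *Fgf1* did not, with 8.61% of WT and 9.81% of KO endothelial cells.

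The members that differed between the libraries were counted beside all genes. A gene was counted as different here when the CPM of the libraries were at least 2-fold apart and both sums together held at least 20 UMIs, which all 9 members reached in each lineage. In epithelium 0 members were higher in KO (2.96% of all 16785 genes were) and 2 were lower, *Pdgfb* and *Pdgfrb* (9.53%). *Pdgfrb* was there near the level of B and T cells in WT (2.76 and 3.07 CPM) and below it in KO (0.40 and 5.72 CPM, the latter from 3 UMIs). In mesenchyme 0 were higher (2.06% of 13718) and 2 were lower, again *Pdgfb*, at background, and *Pdgfrb* (7.14%). In endothelium 1 was higher, *Pdgfa* (3.72% of 12485), and 4 were lower, *Fgf7*, *Fgf10*, *Pdgfra* and *Pdgfrb* (8.2%), all of which had levels whose intervals overlapped with those of B and T cells and passed the minimum through their WT counts. *Fgf10* had 0 UMIs in the KO endothelium, and the 3 UMIs that this allows come to 2.74 CPM beside 2.97 CPM in WT, so its place among them rests on the 0.5 UMIs added to both sums. The lower members were thus a larger share than all genes in each lineage, but only *Pdgfb* in epithelium and *Pdgfrb* in mesenchyme stood above the B and T cells of both libraries. With 9 genes these counts are a description of the libraries. The median log2 ratio of the members was -0.51 in epithelium, -0.03 in mesenchyme and -0.40 in endothelium. Beside them, the medians over all genes tested were -0.20, -0.08 and -0.10. In epithelium and endothelium the member medians include *Fgf7*, *Fgf10*, *Pdgfra* and *Pdgfrb*, which were above the B and T cells in neither library. The epithelial median was the ratio of *Fgf7* itself, at 2.18 CPM in WT and 1.53 in KO.

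The other genes of both pathways were taken from a list of 48, from further ligands and receptors to adaptors and the feedback genes that ERK signaling switches on. In epithelium 34 passed the minimum of 20 UMIs, with 0 higher and 5 lower by 2-fold (9.53% of all genes were lower), and a median ratio of -0.25. In mesenchyme 33 passed, with 1 higher and 2 lower (7.14%) and a median of -0.18. In endothelium 28 passed, with 0 higher and 3 lower (8.2%) and a median of -0.36, and 1 of the 3, *Pdgfc*, had 0 UMIs in KO and was counted only through the 0.5 UMIs added. The lower genes were few and near the shares of all genes.

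The gene that was higher was *Fgf23*, a hormone-like FGF known from bone. It had 30 UMIs in WT (3.55 CPM) and 129 in KO mesenchyme (9.90 CPM), a ratio of 1.48 (0.90 to 2.10). At this low level, no B and T cell level, class levels or class-weighted ratio of *Fgf23* are given here. The epithelial genes that were lower were *Fgf2*, *Fgf20*, *Sulf1*, *Il17rd* and *Pdgfd*. *Il17rd*, an inhibitor of FGF signaling also called Sef, had 33 UMIs in WT (4.80 CPM) and 109 in KO epithelium (1.40 CPM), a ratio of -1.78 (-2.35 to -1.17).

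*Il17rd* and *Pdgfd* were mainly endothelial, at 111 and 231 CPM in the WT endothelium, and *Fgf2* was mainly mesenchymal, at 127 CPM in the WT mesenchyme. In epithelium *Fgf2* was at 4.36 CPM in WT and 0.95 in KO. These low epithelial values lie beside the endothelial marker sums given above, and their source was not tested. In mesenchyme *Etv4* and *Pdgfc* were lower, and *Pdgfc* was at 12.5 CPM in WT and 3.99 in KO. In endothelium *Pdgfc* had 25 UMIs in WT and 0 in KO. The 3 UMIs that a count of 0 allows would exceed the WT level at the KO depth, so no fold is given. The other endothelial genes that were lower were *Fgf2* and *Dusp6*, an ERK phosphatase at 137 CPM in WT and 64.8 in KO (-1.07, -1.44 to -0.73).

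Further receptors and feedback genes stayed nearer to 0 in their leading lineage. *Etv5*, a transcription factor downstream of FGFR2 in AT2 cells, was at 288 CPM in WT and 385 in KO epithelium. Its ratio over the whole epithelium was 0.42 (0.36 to 0.49), in the same direction as that of *Fgfr2*. The *Fgfr2* ratio fell from 0.27 to 0.03 with the classes weighted by their WT shares. For *Etv5* no class-weighted ratio and no ratio within AT2-like cells is given here. *Spry1* and *Spry2*, feedback inhibitors of receptor tyrosine kinases, had epithelial ratios of 0.16 (0.01 to 0.31) and -0.17 (-0.32 to -0.01). *Fgfr3* was at 91.7 and 117 CPM and *Fgfr4* at 61.5 and 63.3 CPM in the mesenchyme of WT and KO.

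Genes with the most similar distribution were found by Pearson's r of log2 levels over 39 pairs of class and library, among 16160 genes. The points share libraries, depth and cell lineage, so r is a description. *Fgfr2* was most like *Foxp2* (0.90), *Abcd3* (0.89) and *Camsap3* (0.88). *Fgf7* and *Fgf10* were both most like *Syn2* (0.96 and 0.93), and *Fgf7* was itself among the 3 nearest genes of *Fgf10* (0.93). *Pdgfra* was nearest to *Mfap4* (0.95), a gene of elastic fibers, then to *Cdh11* (0.94) and *C7* (0.94).

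*Pdgfrb* was nearest to *Gucy1a1* (0.93), a subunit of the nitric oxide receptor that was also 1 of the pericyte markers used for naming, then to *Atp1b2* (0.93) and *C1qtnf1* (0.92). *Fgf1* was nearest to *Bcam* (0.91), *Efna1* (0.88) and *Ptprm* (0.87). *Fgfr1* was nearest to *Boc* (0.86), *Rhobtb3* (0.85) and *Cpxm1* (0.84). The likeness was lower for *Pdgfa*, with *Hbegf* (0.78), *Fat1* (0.78) and *Ajuba* (0.77), and for *Pdgfb*, with *Rab11a* (0.80), *Krt80* (0.79) and *Rnpepl1* (0.78). Over the 22 WT classes alone, at most 2 of the 3 nearest genes of a member were the same, and 0 were for *Fgf10*, *Fgfr1*, *Pdgfb* and *Pdgfrb*, so the nearest genes depend on the points used.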

How the data were processed

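The samples were dissociated lungs of 1 *Pclaf* WT and 1 *Pclaf* KO group, taken 1 week after bleomycin. The authors deposited UMI counts per gene and barcode, whole numbers that were not normalized. Cell Ranger 5.0.0 stands in the matrix headers, whereas the submitters' processing notes name Cell Ranger 3.1.0, STAR and GRCm38 (mm10).

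Cells with more than 200 and fewer than 5000 genes and under 20% mitochondrial UMIs were kept. Both libraries were clustered together in Seurat 5.3.0 (R 4.3.3) with 2000 variable genes, 10 principal components, 20 neighbors and a resolution of 0.8, and neither the 9 genes nor the listed pathway genes could be variable genes. Each lineage was then clustered again, and cells of other lineages were removed. A cluster took a name only with at least 3 of its markers raised by 1 log2 unit or more and detected in 10% of the cells. The members were taken by symbol, and the choice of these genes, of the marker lists and of the gene lists was made with earlier results of these data known.

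UMIs were summed per class and library and divided by all UMIs of that class (CPM). Where 1 of a pair of sums was 0, 0.5 UMIs were added to both. A count of 0 was read as allowing up to 3 UMIs. Doublets were kept, and Scrublet in scanpy 1.11.5 called 8.44% of the WT and 2.87% of the KO cells as doublets, fewer than the 24.1% and 12.5% that the number of cells would predict. The genes named by rule beyond the members are the pathway genes at least 2-fold apart in the leading lineage of their group, and the 3 genes most like each member. Other pathway genes were named after their values were seen. Among them are those at least 2-fold apart only in a lineage that does not lead their group. TMM factors came from edgeR 4.0.16, and exact intervals from scipy 1.17.1. The log2 ratios and intervals were tested on simulated Poisson counts. The intervals assume the same model, so that test checks the calculation and not the spread between cells, animals or libraries. Alternatives changed 1 choice at a time. The protein sequences of the members were not used here.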

Additional observations from a re-analysis of the deposited data

How the results depend on the processing

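Each ratio was recomputed under up to 19 alternatives, 1 of them chosen after seeing the data. No replicate could be left out, since each genotype has 1 library. No paired analysis was possible because each genotype has 1 library and the result comes from no test. Of the recomputed values of the 9 genes in their leading lineage, 140 were counted as the same as the main value. Among these, 1 per gene was a difference of log-normalized means, which was not checked against the counting interval. The others lay within the counting interval of the main value. A further 28 lay outside it, and 3 turned from a main value whose interval left out 0. The ratio of *Fgfr1*, whose interval contains 0, also changed sign in 4 of 19 settings. Log-normalized means were compared by sign alone. Their difference is not a log2 ratio, but it is among the values behind the ranges that follow. Over the alternatives the recomputed value ranged from -0.83 to 0.07 for *Fgf1* in endothelium, from 0.10 to 0.45 for *Fgf7* and from 0.24 to 0.64 for *Fgf10*. It ranged from -0.13 to 0.14 for *Fgfr1*, from 0.0146 to 0.53 for *Fgfr2* in epithelium and from -0.42 to -0.031 for *Pdgfa* in epithelium. For *Pdgfb* in endothelium it ranged from -0.47 to -0.17, for *Pdgfra* from -0.21 to 0.32 and for *Pdgfrb* from -1.39 to -0.11. The *Pdgfrb* end of -0.11 lies nearer to 0 than both class-weighted ratios, -0.19 and -0.29.

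With the limits read as UMIs per cell the ratio was 0.14 for *Fgfr2* in epithelium, 0.42 for *Fgf10* and -1.29 for *Pdgfrb*. With 1 in 6 KO cells alone it was 0.42 for *Fgf10*, 0.14 for *Pdgfra* and -0.83 for *Fgf1* in endothelium. TMM scaling gave 0.53 for *Fgfr2*, -0.10 for *Pdgfa*, 0.0644 for *Fgfr1* and 0.17 for *Pdgfra*, and centring on the median gene gave 0.48 for *Fgfr2*, -0.15 for *Pdgfa* and 0.15 for *Pdgfra*. Class weighting by construction removes differences in the shares of the classes, but not in the shares of the clusters within a class. It gave 0.0334 for *Fgfr2*, -0.0387 for *Pdgfa*, 0.10 for *Fgf7*, 0.24 for *Fgf10*, -0.13 for *Fgfr1* and -0.19 for *Pdgfrb*. For *Pdgfra* it gave -0.20, the opposite sign. The weighting chosen after seeing the data, over classes large enough in both libraries alone, gave 0.0146, -0.031, 0.0991, 0.26, -0.13, -0.29 and -0.21 in that order. For *Pdgfa* in endothelium, at 1.12 as captured, both weightings gave 0.98 and 0.60, the latter without venous-like cells. Thinning to 1000 UMIs gave -0.16 for *Pdgfa*, 0.43 for *Fgf10*, -1.39 for *Pdgfrb* and 0.0734, the opposite sign, for *Fgf1* in endothelium. For the other settings the cause was not tested.

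Without thinning, the shares of cells with a UMI in WT and KO were 17.2% and 14.6% for *Fgf1* in endothelium, 23.2% and 40.9% for *Fgf7*, 21.8% and 41.7% for *Fgf10*, 32.4% and 47.0% for *Fgfr1*, 60.6% and 77.9% for *Fgfr2*, 28.0% and 32.3% for *Pdgfa*, 36.5% and 28.8% for *Pdgfb*, 53.6% and 73.4% for *Pdgfra* and 19.9% and 17.98% for *Pdgfrb*. The share of all genes at least 2-fold higher in epithelium was 1.37% with a minimum of 50 UMIs. In mesenchyme it was 3.47% with a minimum of 10 and 0.851% with 50, and in endothelium 2.03% were higher and 5.33% lower with 50.

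Class ratios turned as follows. For *Fgf1* in AT1-like cells they were 0.47 with the limits read as UMIs, 0.18 without an upper limit on genes, 0.0084 with 1 in 6 KO cells, 0.22 and 0.15 at resolutions of 0.4 and 1.2, 0.13 with the members among the variable genes and 0.021 as log-normalized means. For *Pdgfa* in AT1-like cells they were 0.41 with the limits read as UMIs, 0.0501 with 10% mitochondrial UMIs, 0.0671 with at least 500 genes, 0.36 without an upper limit, 0.91 with 1 in 6 KO cells, 0.38 and 0.23 at resolutions of 0.4 and 1.2, 0.21 with the members among the variable genes and 0.11 after thinning. *Pdgfb* in AT1-like cells was at 0.0883 with 1 in 6 KO cells. *Fgfr2* was at -0.0884 in ciliated-like cells without doublets, and in goblet-like cells at 0.11 without shared barcodes, 0.092 with 20 principal components and 0.0057 under TMM. *Fgf10* in ductal myofibroblast-like cells was at -0.10 with 1 in 6 KO cells and -0.50 after thinning. *Fgf1* in epithelium was at 0.11 under TMM, 0.0579 after median centring and 0.0135 as log-normalized means. In alveolar fibroblast-like cells the log-normalized means of *Fgfr1* and *Pdgfra* gave 0.14 and 0.21. KO endothelial classes of 51 aerocyte-like and 39 venous-like cells, and WT epithelial classes of 94 to 566 cells, limit every ratio that rests on them.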

Other observations

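Mesothelial-like cells, which line the lung surface and were few in both libraries (108 in WT and 163 in KO), carried several of these genes. *Fgf1* was at 34.3 CPM in WT and 151 in KO, a log2 ratio of 2.14 (1.52 to 2.82), and *Fgfr2* was at 62.8 and 134 CPM, a ratio of 1.09. *Pdgfa* was at 98.5 and 96.0 CPM and *Fgfr1* at 51.4 and 67.6 CPM, so the libraries differed little for both. *Pdgfb* was at 21.4 CPM in WT and 1.67 in KO, from 15 and 2 UMIs. These levels were near or below the 15.5 and 5.72 CPM of B and T cells and were read as background. The *Fgf1* ratio rests on 24 UMIs in WT and 181 in KO. For mesothelial-like cells no median over all genes was taken, and their ratios were not recomputed under the alternatives.

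Some immune classes, most of which were large enough only in WT, held *Pdgfb* and *Pdgfa* above the B and T cells. Interstitial macrophage-like cells held 85.0 CPM of *Pdgfb* in WT and 80.9 CPM in KO, and 29.2 and 69.3 CPM of *Pdgfa*, the last from 12 UMIs. In WT, NK-like cells held 74.7 CPM of *Pdgfb* (60.8 to 90.8), and macrophages led by *Spp1* markers held 45.4 CPM of *Pdgfa* and 33.0 CPM of *Pdgfb*. Dendritic-like cells held 65.2 CPM of *Fgfr1* (58.7 to 72.2) in WT, the highest immune level of that receptor among the WT classes given. *Fgf7*, *Fgf10* and *Pdgfrb* were at most 6.01, 3.90 and 11.4 CPM in the WT immune classes.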
